A study of Mus musculus with 9 samples.

Results

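Mice homozygous for LCS, an allele of the lamin gene Lmna, were set against wild type (WT) mice in perigonadal white adipose tissue. The members are the arrays whose titles give these genotypes, 3 LCS/LCS and 3 WT, which is 6 of the 9 arrays of the series. The other 3 arrays hold tissue from mice homozygous for G609G, also an allele of Lmna. All animals were 4 months old and all samples came from the same fat depot, ground whole. The labels name no drug, no diet and no sex, and they tie no array to an animal beyond the word biological in the design text, so a p-value reflects the spread among these arrays alone, and that spread may be technical. Total RNA was hybridised to Affymetrix exon arrays, and 11342 genes were tested. A gene value is a log2 intensity summarised from probe sets that carry exactly 1 gene symbol, and a log2 fold is LCS minus WT.

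White adipose tissue stores triglyceride in large adipocytes, which also secrete hormones such as leptin. Between the adipocytes lie collagen-rich stroma, fibroblast-like progenitors, macrophages and a dense capillary bed, and a mesothelium covers visceral depots. The perigonadal depot borders the gonads, in males the testis and the epididymis, whose duct epithelium secretes different proteins from segment to segment as sperm mature. Lmna encodes lamins A and C of the nuclear lamina, and LCS is known as an allele that gives lamin C without lamin A.

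Lmna, the mutated gene, differed between the groups in single probe sets. Probe set 5039122 read 9.12, 8.69 and 9.24 in the WT arrays and 4.12, 4.96 and 4.87 in the LCS arrays. The LCS arrays were all far below the WT arrays in this probe set. Against the rest of the gene it was lower by a log2 difference of -4.15 (limma diffSplice, adjusted p = 1.72e-34). Probe sets 4479405, 4817758 and 5214105 were also lower relative to the rest of Lmna, and 6 were higher, so that 10 of the 16 probe sets tested passed. Those 6 were higher by 0.94 to 1.35 relative to the rest, but by only 0.41 to 0.79 in their own values. A relative value also carries the falls of the other probe sets. A splicing index with a variance for each probe set called 3. Across all genes, 1.8% of 155155 probe sets passed the diffSplice test. The gene value of Lmna, 7.90, 7.75 and 7.84 in WT and 7.96, 7.74 and 8.06 in LCS, overlapped between the groups and did not pass (log2 fold 0.09), but a plain mean of its probe sets gave -0.47.

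**Figure D1:**
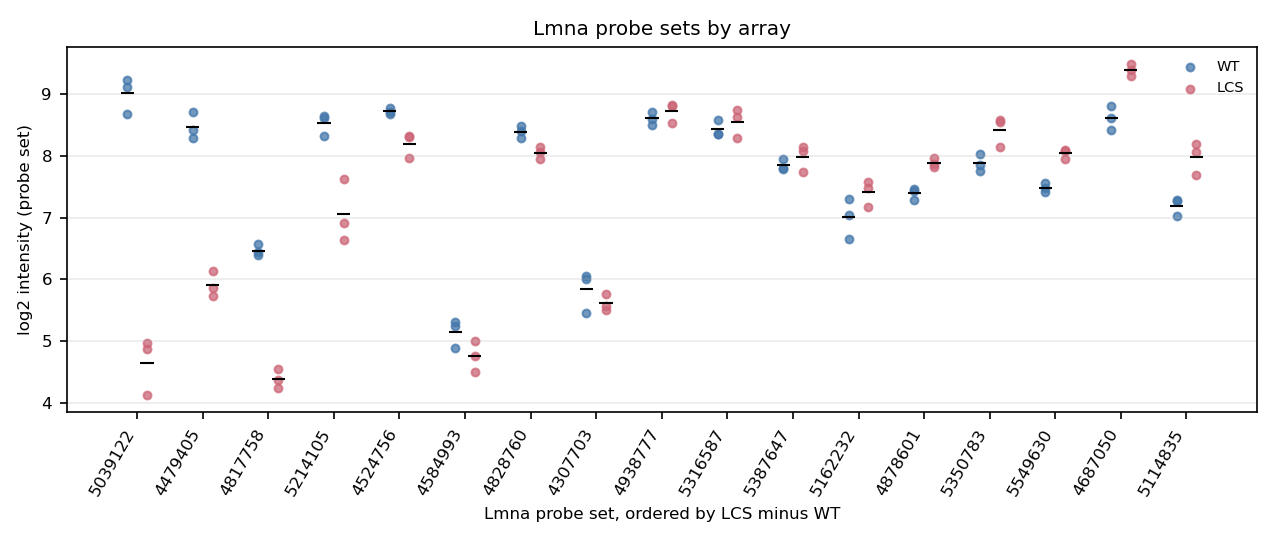
Log2 intensity of the 17 Lmna probe sets (x axis, ordered by the difference LCS minus WT) in 3 WT and 3 LCS arrays, with 1 point per array and a bar at the group mean. Probe set 5039122, at the left, lies at 9.02 on average in WT and 4.65 in LCS, while most probe sets differ by less than 1 unit.

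Adipocyte markers were high in both groups: all 10 of the marker set (Adipoq, Plin1, Lep, Cidec, Lipe, Pnpla2, Cfd, Retn, Fabp4 and Lpl) passed the intensity filter, and their summed linear intensity was 71250 to 71700 in WT and 76690 to 78645 in LCS. Gonadal transcripts were also present, and they differed between the groups. Summed over 7 spermatid markers the intensity was 8826 to 9569 in WT and 724 to 747 in LCS, with all 7 lower. The sum over 9 markers of the distal epididymis and vas deferens was 35716 to 37111 against 5279 to 5535, and the 8 tested were all lower. For the proximal epididymis, 8 of 10 markers were measured and summed to 53129 to 55340 in WT and 52126 to 53228 in LCS. Markers of seminal vesicle (62 to 66 in WT, 62 to 65 in LCS) and of ovary or oviduct (105 to 114 and 102 to 107) were low, and none of them passed the filter for testing. The part of the gonadal transcripts in the other differences was not tested.

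Over all probe sets, the correlation of 2 arrays was 0.983 to 0.989 within WT, 0.989 to 0.990 within LCS and 0.965 to 0.971 between the groups. Array medians were 7.17 to 7.28 in WT and 7.19 to 7.26 in LCS. In this contrast the limma test at an adjusted p under 0.05 called 22.5% of all genes higher and 13% lower, with a median log2 fold of 0.05. At a fold of at least 1.5 it called 3.92% higher and 4.66% lower. These shares are the background for the count of every gene group. In whole tissue, fewer cells of a type and less RNA per cell cannot be told apart.

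Among the fat-storing lists 110 of 312 tested genes (35.3%) were higher and 46 (14.7%) lower, with a median log2 fold of 0.07, close to that of all genes. The changes were mostly small: 20 genes rose and 12 fell by at least 1.5-fold. The share of rises was largest for droplet and caveolae proteins (68.2%), fatty acid oxidation (54.2%) and secreted adipocyte proteins (53.8%), and smallest for the respiratory chain (6.82%).

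The plot of folds by list shows how narrow these groups are beside the gonadal ones.

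**Figure D2:**
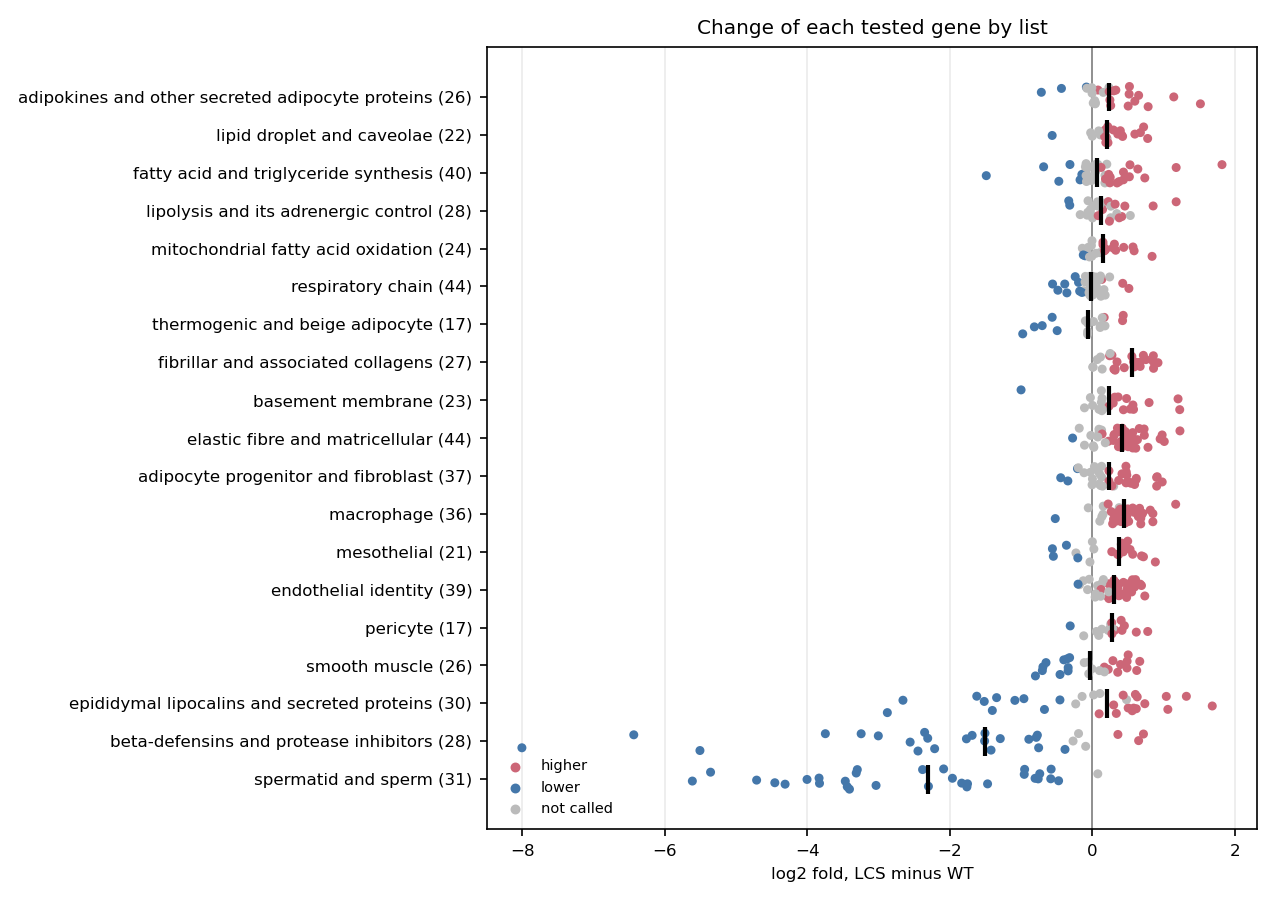
Log2 fold, LCS minus WT (x axis), of each tested gene in 19 lists (y axis, number of tested genes in brackets); red and blue points passed the limma test as higher and lower, grey did not, and black bars are list medians. Collagens and macrophage genes sit to the right of 0 with medians of 0.55 and 0.45, and defensins and sperm genes reach far to the left with medians of -1.51 and -2.30.

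Adipokines and other secreted adipocyte proteins had 14 of 26 tested members higher and 3 lower. Lep, the hormone that reports fat stores to the brain, read 10.70, 10.58 and 10.62 in WT and 11.75, 11.78 and 11.80 in LCS. The LCS arrays lay more than 1 log2 unit above every WT array. The difference was 2.21-fold (log2 fold 1.14, SE 0.06, adjusted p = 2.26e-09). Sfrp5, a secreted Wnt antagonist of adipocytes, read 10.02, 9.92 and 10.18 in WT against 11.61, 11.51 and 11.55 in LCS, a log2 fold of 1.52 (SE 0.13, adjusted p = 6.37e-07). Haptoglobin (Hp), at 12.01, 11.99 and 11.99 against 12.65, 12.66 and 12.63 in LCS, rose by 0.65 with no overlap. Angptl4, which inhibits lipoprotein lipase, rose by 0.52 and Rarres2, the precursor of chemerin, by 0.52.

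The 3 secreted proteins that fell were Gpx3, Cp and Agt. Gpx3, the extracellular glutathione peroxidase, read 12.65, 12.67 and 12.63 in WT and 11.92, 11.91 and 11.98 in LCS (log2 fold -0.72, adjusted p = 4.24e-11). Cp, the copper protein ceruloplasmin, had a log2 fold of -0.43. Adiponectin, adipsin and resistin did not pass. Adipoq read 13.36, 13.40 and 13.30 in WT and 13.40, 13.37 and 13.39 in LCS, overlapping, and the log2 folds of Cfd and Retn were -0.01 and 0.01.

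The promoter of Lep is shown because Lep is the adipokine with the best described C/EBP site near its start. The 250 bases before the RefSeq start of Lep (GRCm38.p6, chr6:29059971-29060220, plus strand) hold the C/EBP palindrome TTGCGCAA, in capitals, whose first base lies 55 bases before the start. Searched on both strands, these letters stand in 54 of 32851 promoters of the same length (0.164%), and among the adipokines listed they stand before Lep and Orm2. A match of letters is a description, and no binding was measured.
Lep: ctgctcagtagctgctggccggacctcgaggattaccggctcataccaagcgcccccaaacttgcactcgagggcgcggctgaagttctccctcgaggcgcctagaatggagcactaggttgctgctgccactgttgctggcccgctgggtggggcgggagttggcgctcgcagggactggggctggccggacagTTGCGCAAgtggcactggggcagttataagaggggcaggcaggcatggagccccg

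The lipid droplet and caveolae list had 15 of 22 tested members higher and 1 lower, with a median of 0.21. Caveolae are membrane pits that cover much of the adipocyte surface. Their coat protein Cavin1, under the array symbol Ptrf, read 11.02, 10.95 and 11.22 in WT and 11.75, 11.67 and 11.79 in LCS, with no overlap and a log2 fold of 0.68 (SE 0.07, adjusted p = 2.95e-06). Cavin3 (Prkcdbp) rose by 0.78, Ehd2, an ATPase at the neck of caveolae, by 0.60, Cav2 by 0.41 and Cav1 by 0.19. Of the droplet proteins, perilipin 2 (Adfp) read 11.10, 11.10 and 11.13 against 11.46, 11.46 and 11.48, and perilipin 4 (S3-12) rose by 0.30. Perilipin 1 (Plin), which guards the droplet from lipases, rose by 0.17, a call that ended with the median of probe sets as the gene value (adjusted p = 0.0558). Cidec, which fuses droplets, rose by 0.19. Cidea, the family member typical of brown fat, was the 1 that fell, from 6.07, 5.94 and 5.83 to 5.41, 5.43 and 5.32 (log2 fold -0.56).

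**Figure D3:**
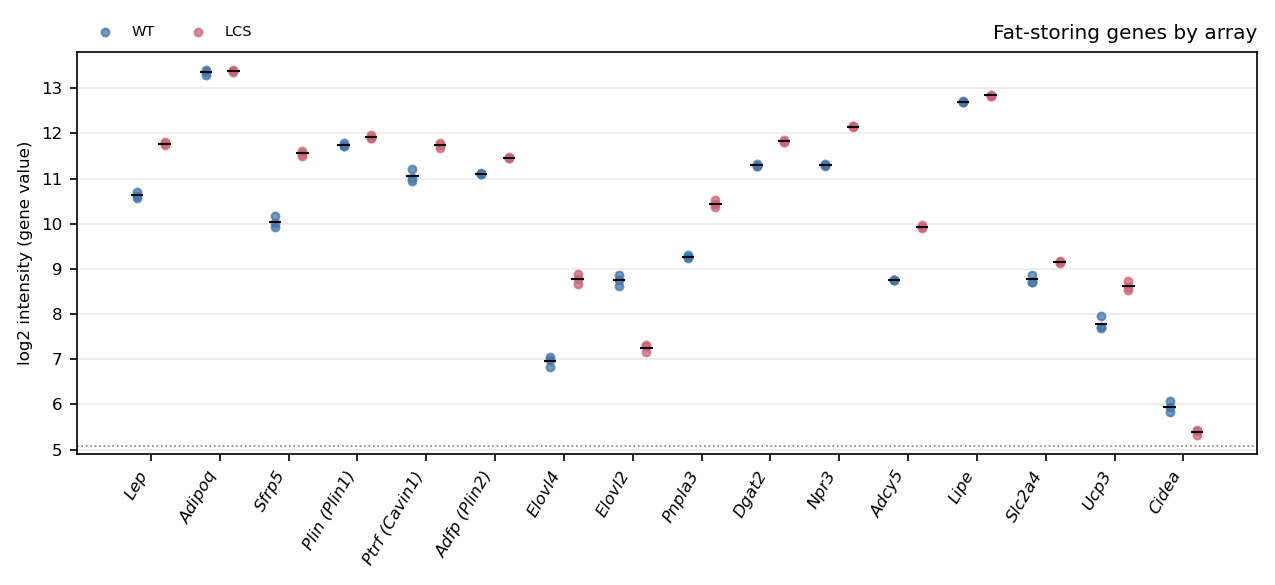
Log2 intensity (y axis) of 16 fat-storing genes in 3 WT and 3 LCS arrays, 1 point per array, with bars at group means and a dotted line at the intensity filter of 5.09. Lep, Sfrp5, Elovl4, Pnpla3 and Adcy5 stand more than 1 unit higher in LCS, Elovl2 stands lower and Adipoq overlaps.

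Among the adipogenic transcription factors 11 of 34 were higher and 6 lower, with a median of 0.05. Nr1h3, the oxysterol receptor LXR alpha, read 8.67, 8.69 and 8.79 in WT and 9.46, 9.29 and 9.55 in LCS (log2 fold 0.72). Cebpb rose by 0.57, the corepressor Tle3 by 0.56, the retinoid receptor Rxra by 0.48 and Ebf1 by 0.45. Thrsp, a lipogenic nuclear protein, fell from 10.54, 10.65 and 10.78 to 9.94, 9.87 and 9.90 (log2 fold -0.75, adjusted p = 2.42e-07). Cebpa, which drives terminal adipocyte differentiation, read 9.94, 9.84 and 9.98 in WT and 10.03, 10.09 and 10.14 in LCS, with no overlap. Its log2 fold of 0.17 did not pass (adjusted p = 0.0511), although 6 other fits and the fit without WT array 3 (0.0432) called it. Pparg, the master regulator of adipocytes, read 10.74, 10.63 and 10.81 against 10.56, 10.60 and 10.61 (log2 fold -0.14, adjusted p = 0.0408). Its call was lost when WT array 1 (adjusted p = 0.114) or WT array 3 (0.163) was left out, and likewise without LCS array 1 (0.133), 2 (0.0730) or 3 (0.0784).

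In fatty acid and triglyceride synthesis 15 of 40 genes were higher and 6 lower, and the enzymes that elongate fatty acids moved in opposite directions. Elovl4, which extends very long chains, read 6.83, 6.99 and 7.05 in WT and 8.89, 8.66 and 8.77 in LCS. The groups were far apart, with a 3.53-fold rise (log2 fold 1.82, SE 0.10, adjusted p = 4.73e-09). Elovl2, which extends polyunsaturated chains, fell from 8.62, 8.76 and 8.87 to 7.32, 7.16 and 7.30, a log2 fold of -1.49. The patatin-like Pnpla3 read 9.24, 9.26 and 9.30 against 10.43, 10.38 and 10.52 (log2 fold 1.18). Gpd1, which makes glycerol 3-phosphate, rose by 0.64, and Dgat2, which adds the last acyl chain of triglyceride, by 0.52. Fasn (12.38, 12.33 and 12.38 in WT, 12.38, 12.33 and 12.35 in LCS) and Scd1 (13.69, 13.74 and 13.70, then 13.75, 13.72 and 13.75) overlapped and did not pass.

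Of the lipolysis list 10 of 28 genes were higher and 2 lower. Npr3, the receptor that clears natriuretic peptides, read 11.30, 11.28 and 11.31 in WT and 12.13, 12.15 and 12.17 in LCS, a log2 fold of 0.85 (SE 0.05, adjusted p = 3.86e-09). Adcy5, an adenylyl cyclase that makes cyclic AMP, read 8.76 in all 3 WT arrays and 9.97, 9.91 and 9.93 in LCS (log2 fold 1.18). Both genes were separated widely by group. Abhd5, the coactivator of adipose triglyceride lipase, rose by 0.46 and the kinase subunit Prkar2b by 0.32. Hormone-sensitive lipase (Lipe) rose by 0.14 and Pde4d, which breaks down cyclic AMP, had a log2 fold of -0.33.

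Fatty acid uptake and binding had 10 of 19 genes higher and 2 lower. Gpihbp1, which holds lipoprotein lipase on capillaries, rose by 0.50, the phospholipid transfer protein Pltp by 0.38 and Fabp5 by 0.33. Fabp3, the heart-type fatty acid binding protein, fell from 6.14, 6.03 and 6.40 to 5.13, 5.14 and 4.92 (log2 fold -1.13), which in LCS lies about the filter of 5.09. Got2 fell from 12.27, 12.24 and 12.26 to 11.34, 11.36 and 11.36 (log2 fold -0.90). In cholesterol synthesis and uptake 6 of 28 were higher and 5 lower. The sterol exporter Abcg1 rose by 0.54, and Soat1, which esterifies cholesterol, had a log2 fold of -0.76.

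For insulin signalling and glucose uptake 10 of 33 genes were higher and 7 lower. The ectoenzyme Enpp1, which makes pyrophosphate, had the largest fall of all fat-storing genes tested, from 11.97, 11.98 and 11.89 to 9.85, 9.83 and 9.83 (log2 fold -2.11, adjusted p = 5.51e-13). One Enpp1 probe set fell further than the rest of the gene, by -2.57 relative to it (diffSplice adjusted p = 2.76e-31). The fructose transporter Slc2a5 fell from 7.28, 7.21 and 7.43 to 5.59, 5.68 and 5.38. The insulin-responsive glucose transporter Slc2a4 rose by 0.39, and the insulin receptor Insr, at -0.08, did not pass.

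Mitochondrial genes were split. In fatty acid oxidation 13 of 24 were higher and 2 lower. Ucp3, a mitochondrial carrier, read 7.70, 7.71 and 7.95 in WT and 8.73, 8.54 and 8.61 in LCS (log2 fold 0.84), and Pdk4, which turns off pyruvate oxidation, rose by 0.59. Of 44 respiratory chain genes only 3 were higher and 8 lower, with a median of -0.02. Cox6b1 had a log2 fold of -0.56 and Cox4i1 of -0.36. In the thermogenic list 3 of 17 were higher and 5 lower. The coactivator Ppargc1a fell from 7.68, 7.66 and 7.68 to 7.10, 6.82 and 6.66. Cited1, a marker of beige fat, had a log2 fold of -0.98, while the brown fat regulator Prdm16 rose by 0.42. Ucp1, a marker of brown adipocytes, did not pass the intensity filter and is not in these counts. It read 6.24, 5.77 and 6.29 in WT and 4.25, 4.55 and 4.27 in LCS. That is a log2 fold of -1.74 without overlap.

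Stromal genes were more often higher: 205 of 367 tested (55.9%) rose and 28 (7.63%) fell, with a median log2 fold of 0.30. At a fold of at least 1.5 the counts were 78 and 8. Matrix genes, macrophage genes and immediate early genes all had medians well above the 0.05 of all genes, whereas the proliferation list did not.

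All 21 called genes of the 27 tested collagens and collagen-modifying enzymes were higher, with a median of 0.55. Collagen VI, the pericellular collagen that surrounds adipocytes, rose in its 3 main chains. Col6a1 read 8.82, 8.79 and 8.87 in WT and 9.75, 9.77 and 9.73 in LCS, a log2 fold of 0.92 (SE 0.06, adjusted p = 2.41e-08), Col6a2 rose by 0.85 and Col6a3 by 0.86. The fibrillar collagens rose less: Col3a1 read 9.39, 9.39 and 9.44 against 9.77, 9.71 and 9.70 (log2 fold 0.32), and Col1a2 rose by 0.28. Col1a1 rose by 0.24, a call lost with the median of probe sets (adjusted p = 0.0901). The enzymes Bmp1, which trims procollagen, and Plod2, which hydroxylates lysines of collagen, rose by 0.86 and 0.75.

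The basement membrane list had 12 of 23 genes higher and 1 lower. Col4a2 read 8.10, 8.09 and 8.21 in WT and 9.38, 9.32 and 9.31 in LCS (log2 fold 1.203, adjusted p = 4.54e-09), and its partner chain Col4a1 8.71, 8.71 and 8.75 against 9.54, 9.48 and 9.54 (log2 fold 0.80). The laminin receptor subunit Itga7 read 8.35, 8.28 and 8.46 against 9.68, 9.46 and 9.63, a log2 fold of 1.23. The linkers Nid1 and Nid2 rose by 0.53 and 0.57. Lama1, the laminin chain of many epithelial basement membranes, was the exception and fell from 7.17, 7.19 and 7.43 to 6.24, 6.27 and 6.28 (log2 fold -1.0).

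Elastic fibre and matricellular genes had 33 of 44 members higher and 1, Thbs2, lower, with a median of 0.415. Fibrillin 1 (Fbn1), the scaffold of microfibrils, read 9.99, 9.99 and 10.03 in WT and 11.01, 10.94 and 10.98 in LCS (log2 fold 0.97, SE 0.05, adjusted p = 3.42e-09). Its neighbour in microfibrils, Mfap5, rose by 0.98. The matricellular proteins Ccn5 (Wisp2) and Ccn1 (Cyr61) rose by 1.23 and 1.01, and fibronectin (Fn1) by 0.50. Decorin (Dcn) overlapped between groups and did not pass (log2 fold 0.01). Among matrix proteases and their inhibitors 20 of 32 were higher and 3 lower, with the thrombin inhibitor Serpine2 at 6.82, 6.98 and 6.92 against 8.23, 8.14 and 8.39 (log2 fold 1.35) and the macrophage elastase Mmp12 at 7.18, 7.26 and 7.38 against 8.47, 8.42 and 8.44 (log2 fold 1.17).

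In the progenitor and fibroblast list 19 of 37 genes were higher and 3 lower. Pi16, a marker of early adipose progenitors, read 8.10, 8.13 and 8.29 in WT and 9.11, 8.95 and 9.16 in LCS (log2 fold 0.90), and the progenitor surface protein Cd34 rose by 0.53. Pdgfra, the receptor that marks most adipose fibroblasts, had a log2 fold of 0.10 and did not pass, while Pdgfrb rose by 0.28. Secreted Wnt antagonists of this list went both ways. Sfrp1 rose by 0.98 and Sfrp4 by 0.91, whereas Sfrp2 had a log2 fold of -0.44, a call lost with the median of probe sets (adjusted p = 0.247). In the Wnt list 8 of 33 were higher and 5 lower, with the target gene Tcf7 at a log2 fold of -1.305. TGF-beta and BMP signalling had 19 of 34 higher and 2 lower, among them the feedback inhibitor Smad7 with 0.53.

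Macrophage genes had 29 of 36 tested members higher and 1, Trem2, lower, the highest share of the stromal lists. Cd163, a scavenger receptor of resident macrophages, read 7.99, 7.99 and 8.0 in WT and 8.83, 8.86 and 8.84 in LCS, a log2 fold of 0.85 (SE 0.07, adjusted p = 6.31e-07). Lysozyme (Lyz2) rose by 0.34 and Cd68 by 0.37. The 3 chains of complement C1q, whose genes are neighbours, rose alike by 0.66 (C1qa), 0.68 (C1qb) and 0.69 (C1qc). Over 8 measured macrophage markers the summed intensity was 8206 to 8881 in WT and 11371 to 11779 in LCS. Of the chemokine list 10 of 23 were higher and 4 lower. Ccl6, Ccl7 and Ccl9 rose by 0.88, 0.91 and 0.83, and the prostaglandin synthase Ptgs2 fell from 8.77, 8.78 and 8.93 to 7.16, 7.06 and 7.03 (log2 fold -1.75, adjusted p = 4.24e-11).

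Mesothelial genes had 13 of 21 members higher and 4 lower. Mesothelin (Msln) read 7.89, 7.87 and 8.03 in WT and 8.85, 8.72 and 8.88 in LCS (log2 fold 0.88), and Upk3b rose by 0.53. The 4 that fell were Cdh3, Krt18, Krt8 and Wnt4. Krt8 and Krt18 are also in the duct epithelium list, where 14 of 23 were lower. The part of duct epithelium in these falls was not tested. With the median of probe sets the calls of Krt8 and Cdh3 were lost (adjusted p = 0.0599 and 0.0564). In the proliferation list 3 of 22 were higher (13.6%) and 4 lower (18.2%), beside 22.5% and 13% of all genes.

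Immediate early genes, which respond within minutes to stimuli and to handling of tissue, had 17 of 29 members higher and 1 lower, with a median of 0.36. Ier3 rose by 0.99, Jun by 0.63, Dusp1 by 0.52 and Btg2 by 0.56, and the 1 lower gene was Rgs2. Dusp1, a phosphatase that switches off MAP kinases, read 9.51, 9.54 and 9.70 in WT and 10.07, 10.13 and 10.10 in LCS. A pair of promoters of this list is shown because both hold the full cyclic AMP response element TGACGTCA, in capitals. It was found on both strands in 3 of 25 immediate early promoters (Btg2, Dusp1 and Maff) and in 1.546% of all 32851. The stretches are 60 bases each from RefSeq, GRCm38.p6, minus strand, at chr17:26508582-26508641 for Dusp1 and chr1:134079288-134079347 for Btg2, with the element starting 143 and 166 bases before the gene's start.
Dusp1: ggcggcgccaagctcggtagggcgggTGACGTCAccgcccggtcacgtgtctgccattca
Btg2: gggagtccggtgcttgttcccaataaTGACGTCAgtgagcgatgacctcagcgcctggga

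Vascular genes followed the stroma: 73 of 141 tested (51.8%) were higher and 19 (13.5%) lower, with a median of 0.25, and 14 rose and 5 fell by at least 1.5-fold. The endothelial identity list held 27 of the rises, and the smooth muscle list 10 of the falls. Fabp4 and Gpihbp1 of the endothelial list, Ebf1 of the pericyte list and Angptl4 of the angiogenic list also stand in fat-storing lists. The vascular and fat-storing counts therefore share genes.

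The endothelial identity list had 27 of 39 tested genes higher and 1, Vwf, lower. Vwf averaged 8.51 in WT and 8.31 in LCS. Its call was lost in 3 other fits and in 5 fits that left out 1 array. Kdr, the main VEGF receptor, read 8.77, 8.78 and 8.96 in WT and 9.42, 9.33 and 9.45 in LCS, a log2 fold of 0.56 (SE 0.07, adjusted p = 1.21e-05). VE-cadherin (Cdh5), the junction protein of endothelium, read 10.87, 10.79 and 10.94 against 11.24, 11.22 and 11.22 (log2 fold 0.36). The groups did not overlap for either gene. Tinagl1 rose by 0.74, the transcription factor Sox18 by 0.69, Cd93 by 0.67 and the water channel Aqp1 by 0.61. Summed over 9 endothelial markers the intensity was 5602 to 6172 in WT and 6818 to 7183 in LCS, and of the 8 tested 5 were higher and 1 lower.

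Among arterial, Notch and tip-cell genes 12 of 24 were higher and 2 lower, with the Notch ligand Dll4 at 0.49 and Apln, a peptide of tip cells, at 0.78. Angiogenic ligands and hypoxia genes had 14 of 31 higher and 4 lower. Vegfa read 10.25, 10.25 and 10.26 in WT and 10.77, 10.79 and 10.76 in LCS (log2 fold 0.52), and Fgf1 rose by 0.90, while the oxygen sensor Egln3 had a log2 fold of -0.86. Of 9 tested lymphatic genes 4 were higher and 1 lower. Lyve1, which macrophages also carry, rose by 0.81.

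Mural genes were divided. In the pericyte list 8 of 17 were higher and 1 lower. Rgs5 read 9.43, 9.44 and 9.59 in WT and 10.20, 10.04 and 10.06 in LCS (log2 fold 0.62, adjusted p = 3.36e-06), and Steap4 rose by 0.78. The smooth muscle list had 10 of 26 higher and 10 lower. Myh11, the smooth muscle myosin heavy chain, fell from 9.07, 9.09 and 9.14 to 8.49, 8.30 and 8.44 (log2 fold -0.69, SE 0.06, adjusted p = 1.20e-06). Calponin (Cnn1) fell from 8.29, 8.37 and 8.44 to 7.61, 7.43 and 7.67, and Tpm1 from 10.45, 10.54 and 10.51 to 9.86, 9.85 and 9.68. In the same arrays Acta2 rose by 0.22 and the enteric-type actin Actg2 by 0.67. Smooth muscle also wraps the epididymal duct. The distal epididymal sum of 35716 to 37111 in WT and 5279 to 5535 in LCS stands beside these falls, and its part in them was not tested.

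**Figure D4:**
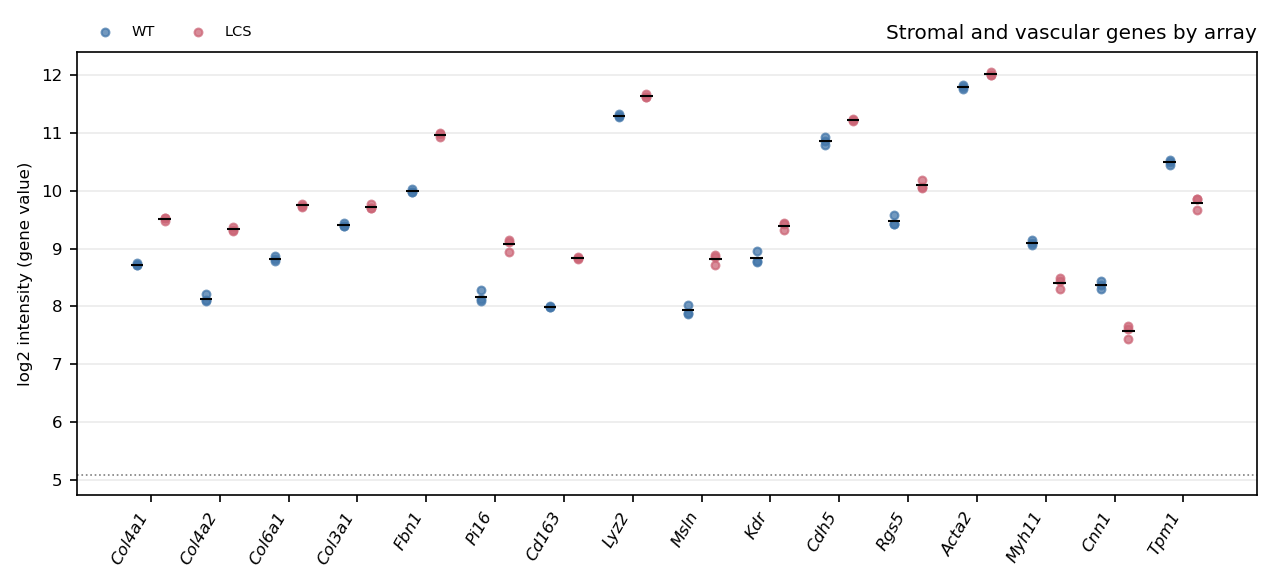
Log2 intensity (y axis) of 16 stromal and vascular genes in 3 WT and 3 LCS arrays, 1 point per array, with bars at group means and a dotted line at the filter of 5.09. Matrix, macrophage, mesothelial and endothelial genes stand higher in LCS, and Myh11, Cnn1 and Tpm1 stand lower.

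Of 133 tested genes on the gonadal lists 25 (18.8%) were higher and 82 (61.7%) lower, with a median log2 fold of -0.70, and 71 fell by at least 1.5-fold. They differed by part of the tract: all 7 spermatid markers and all 8 tested distal markers fell, whereas of the 8 tested markers of the proximal epididymis 4 rose and 2 fell. Crisp1 belongs to both epididymal marker sets and is 1 of the 2. Adam7 is 1 of the 4, with a log2 fold of 0.10 that 4 other fits did not call, nor did the fits without WT array 3 (adjusted p = 0.0888), LCS array 2 (0.0699) or LCS array 3 (0.0587). Since the filter used the mean of all 9 arrays, 22 of the 133 genes passed it with an LCS mean under it, so these had to read lower in LCS than in another group. An earlier text on these arrays had already named Spint4, Wfdc13, Defb22, Crisp1 and Rnase9 of the distal set. It had also named Lcn5 of the proximal set and Prm2 of the spermatid set. The gonadal counts, marker counts and medians therefore describe the genes tested and support nothing further.

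Epididymal lipocalins and secreted proteins had 15 of 30 genes higher and 10 lower. Lcn8, a lipocalin of the initial segment and caput, read 12.78, 12.75 and 12.69 in WT and 13.12, 13.04 and 13.07 in LCS, a log2 fold of 0.34 (SE 0.06, adjusted p = 8.18e-04). Gpx5, the sperm-coating peroxidase of the caput, read 13.39, 13.35 and 13.34 against 13.49, 13.49 and 13.42 with no overlap. Its log2 fold of 0.11 (SE 0.20) did not pass, but it was called in 2 other fits, both of the 6 WT and LCS arrays alone. The G609G arrays, which enter the shared estimate of error, had an SD of 0.645 for this gene. Teddm1 rose from 7.69, 7.91 and 8.05 to 9.59, 9.51 and 9.60 (log2 fold 1.68). Rnase9, in contrast, fell from 12.20, 12.13 and 12.00 to 9.29, 9.23 and 9.18, and Cd52, the sperm surface antigen shed by distal epithelium, from 11.81, 11.78 and 11.80 to 9.17, 9.05 and 9.20. Crisp1 fell by 1.62 on the log2 scale.

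Neighbouring lipocalin genes differed. From Lcn8 onward on chromosome 2, Lcn5 had a log2 fold of -1.52 (13.39, 13.38 and 13.37 in WT, 11.87, 11.86 and 11.86 in LCS), Lcn10 of 0.74 and Lcn13, now Obp2a, of 1.81 (6.76, 6.74 and 6.76, then 8.57, 8.48 and 8.63). Over the 30 tested genes of the epididymal list the median SD between arrays was 0.024 in WT and 0.026 in LCS, against 0.078 and 0.062 over all genes tested. These sets were not matched on signal level. Lcn5 and Adam7 of the list averaged 13.38 and 12.81 in WT, near the highest value of 14.38. The part of signal level in the smaller SD was not tested.

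Beta-defensins and small protease inhibitors, which line the duct, had 22 of 28 genes lower and 3 higher, with a median of -1.51. Spint4, a Kunitz-type inhibitor of the epididymis, read 12.81, 12.81 and 12.79 in WT and 5.19, 4.61 and 4.61 in LCS. The LCS arrays lay at about the intensity filter of 5.09, so the log2 fold of -8.01 (SE 0.11, adjusted p = 2.62e-15) depends on the lowest signal the array gives. Wfdc13 fell from 12.19, 12.18 and 12.22 to 5.67, 5.55 and 6.06 (log2 fold -6.44). The genes tested in the same run of inhibitor genes also fell, with log2 folds of -1.51 for Wfdc6b and -3.75 for Wfdc16. In the defensin run, Defb22 fell from 11.11, 11.11 and 11.12 to 5.90, 5.73 and 5.19 (log2 fold -5.51), and Defb29, Defb21 and Defb19 had log2 folds of -2.31, -2.56 and -2.45. Defb20, the gene next to Defb22, rose from 12.47, 12.43 and 12.50 to 13.02, 13.15 and 13.18 (log2 fold 0.65, adjusted p = 8.68e-04).

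Of 43 spermatid and sperm genes measured, 31 passed the filter, and 30 of these were lower and none higher, with a median of -2.30. For 15 of the 31 the LCS mean lay under the filter. Among the 16 with an LCS mean above it, 15 were lower. The 12 genes that were not tested also read lower in every LCS array than in any WT array. Over all genes tested, 19.4% read lower in LCS without overlap. Prm2, a protamine that packs sperm DNA, read 11.40, 11.44 and 11.49 in WT and 7.26, 7.03 and 7.09 in LCS, a log2 fold of -4.31 (SE 0.07, adjusted p = 3.18e-15). Prm1 fell from 11.53, 11.17 and 11.41 to 8.23, 8.41 and 8.37. Odf1, of the outer dense fibres of the tail, fell from 10.34, 10.29 and 10.41 to 5.59, 5.68 and 5.64, and Fabp9, a fatty acid binding protein of the acrosome, from 10.11, 9.99 and 10.15 to 4.52, 4.60 and 4.29. Prm1 and Prm2 remained above the filter of 5.09 in every LCS array, while Fabp9 lay under it.

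The promoters of Lcn8, Spint4 and Prm2 are shown because these genes stand for the proximal duct, the distal duct and sperm. Each sequence is the 250 bases before the RefSeq start (GRCm38.p6): chr2:25652868-25653117 on the plus strand for Lcn8, chr2:164698251-164698500 on the plus strand for Spint4 and chr16:10792106-10792355 on the minus strand for Prm2. Capitals mark a CCAAT box in Lcn8 and Spint4, starting 73 and 216 bases before the start, and a TATATA stretch in Prm2, 29 bases before it. Searched on both strands, CCAAT stands in 33.85% of all promoters and TATATA in 5.248%, so CCAAT does not set Lcn8 or Spint4 apart.
Lcn8: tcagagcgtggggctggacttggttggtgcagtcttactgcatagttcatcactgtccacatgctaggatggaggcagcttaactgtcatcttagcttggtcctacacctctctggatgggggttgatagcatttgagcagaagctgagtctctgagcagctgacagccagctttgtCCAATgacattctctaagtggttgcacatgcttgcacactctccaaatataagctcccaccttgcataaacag
Spint4: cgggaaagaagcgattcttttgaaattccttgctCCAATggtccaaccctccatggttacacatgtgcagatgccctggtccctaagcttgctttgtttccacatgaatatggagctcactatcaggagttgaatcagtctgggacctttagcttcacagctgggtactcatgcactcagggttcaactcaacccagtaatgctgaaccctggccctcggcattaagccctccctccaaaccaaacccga
Prm2: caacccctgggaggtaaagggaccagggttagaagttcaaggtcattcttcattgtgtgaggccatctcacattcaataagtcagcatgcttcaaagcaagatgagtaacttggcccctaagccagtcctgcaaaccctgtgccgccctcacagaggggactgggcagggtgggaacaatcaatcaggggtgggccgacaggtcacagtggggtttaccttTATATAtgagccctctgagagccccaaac

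**Figure D5:**
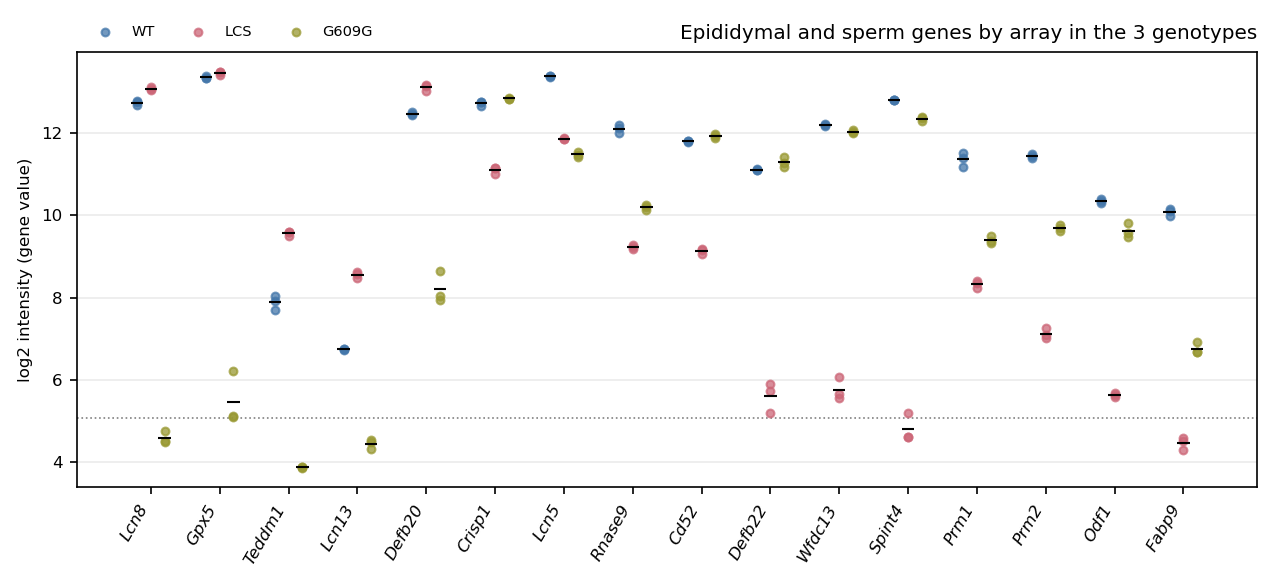
Log2 intensity (y axis) of 16 epididymal and sperm genes in 3 WT, 3 LCS and 3 G609G arrays, 1 point per array, with bars at group means and a dotted line at the filter of 5.09. Lcn8 and Gpx5 are high in WT and LCS and low in G609G, whereas Defb22, Wfdc13 and Spint4 are high in WT and G609G and low in LCS.

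Of the duct and accessory gland epithelium list 14 of 23 genes fell and 2 rose, with the duct transcription factor Pax2 at -1.17 and the tight junction protein Cldn3 at -0.89. The Leydig and steroid synthesis list had 4 of 8 tested genes higher and 2 lower, with a median of 0.31, and its summed intensity was 6874 to 7274 in WT and 8227 to 8420 in LCS. Fads3 and Scarb1 of this list also stand in fat-storing lists, so this sum and median do not describe Leydig cells alone. Star, which carries cholesterol into mitochondria, rose from 5.26, 5.34 and 5.29 to 5.71, 5.57 and 5.83 (log2 fold 0.41, adjusted p = 4.17e-03), but not with the median of probe sets (adjusted p = 0.0918). Cyp17a1, the androgen-making enzyme of Leydig cells, read 8.54, 8.62 and 8.65 in WT and 4.67, 4.86 and 5.02 in LCS (log2 fold -3.76), and Hsd3b6 had a log2 fold of -2.79. Both had an LCS mean under the filter. Of the 5 Leydig markers 2 could be tested, and the summed intensity of all 5 was 1172 to 1297 in WT and 437 to 497 in LCS. Both tested ovary, oviduct and uterus genes did not pass.

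The third genotype allowed the gonadal pattern to be set beside another mutant of the same gene, with no array in common between LCS and G609G. Lcn8 averaged 13.08 in LCS and 4.59 in G609G, a log2 difference of 8.48 (limma, adjusted p = 5.03e-19), and Gpx5 differed by 7.99. Spint4 differed the other way, averaging 4.80 in LCS and 12.35 in G609G (log2 difference -7.55, adjusted p = 3.00e-16), as did Defb22 with -5.69. WT arrays were high for all 4 genes. Not all gonadal genes differed in this opposite way. The sperm genes Prm2 and Fabp9 averaged 11.44 and 10.08 in WT, 7.13 and 4.47 in LCS, and 9.70 and 6.75 in G609G. Both lay below the same WT arrays in the 2 mutants. The fat-storing genes Lep and Npr3 were higher in LCS than in G609G by 7.02 and 4.10, and Col6a1 by 2.47. Myh11 and Ptgs2 were lower in LCS than in G609G, by log2 differences of -1.33 and -3.72, and for both G609G read above WT.

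Some genes of other tissues and of stress responses also differed between the groups, beside 22.5% higher and 13% lower of all genes. The glucocorticoid and fasting list had 15 of 22 genes higher and 1 lower. Cdkn1a, the cell cycle inhibitor p21, read 8.94, 8.95 and 8.91 in WT and 10.11, 10.03 and 10.12 in LCS (log2 fold 1.15, adjusted p = 4.42e-10), and Fkbp5, a target of the glucocorticoid receptor, rose by 0.75. Among p53 targets 10 of 25 were higher and 1 lower. In the skeletal muscle list 4 of 16 were higher (25%, near the share of all genes) and none lower. The skeletal actin Acta1 rose from 9.03, 9.09 and 9.25 to 10.73 in all 3 LCS arrays, while creatine kinase Ckm did not pass. Albumin (Alb) fell from 10.41, 10.32 and 10.39 to 7.33 in all 3 LCS arrays. Among the lamin and nuclear envelope genes 4 of 24 were higher (16.7%) and 2 lower (8.33%), both shares below those of all genes. Banf1, which bridges chromatin and lamina, rose by 0.50, the nuclear pore protein Nup210 had a log2 fold of -0.92, and Zmpste24, the protease that matures lamin A, did not pass (log2 fold 0.15), although 4 other fits called it.

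Among the largest rises by the naming rule were Slc5a7, Sectm1b, Scube1, Elovl4 and Lcn13. Slc5a7, the choline transporter of cholinergic neurons, read 5.28, 4.93 and 5.29 in WT and 8.11 in all 3 LCS arrays, a log2 fold of 2.94 (adjusted p = 3.46e-11). Its WT arrays lay at about the filter of 5.09, so the size of this rise depends on the lowest signal the array gives, and the same holds for Sectm1b with a WT mean of 5.10. Slc5a7 and Sectm1b (2.14) were the only genes called with a log2 fold of 2 or more (0.0176% of those tested), whereas 116 (1.02%) were called at -2 or below. Among the 15 largest falls, Spint4, Wfdc13, Fabp9, Defb22, Crisp2, Mael, Odf1, Ldhc and Prm2 belong to the gonadal lists. The rest were Iqcf3, Spz1, Fhl4, Gk2, Npy and Gpr82. Iqcf3, Spz1, Fhl4 and Gk2 averaged below WT in both mutants, as did Prm2 and Fabp9. Spz1 averaged 8.43 in WT, 3.33 in LCS and 4.81 in G609G. Npy, the neuropeptide Y gene, fell from 10.15, 10.14 and 10.25 to 5.74, 5.54 and 5.77 (log2 fold -4.50). Gpr82, an orphan receptor, fell from 8.78, 8.79 and 9.02 to 3.88, 3.38 and 3.58, under the filter in every LCS array. In G609G, Npy and Gpr82 averaged 10.64 and 8.35, against 10.18 and 8.86 in WT. Spint4, Wfdc13 and Defb22 were likewise high in WT and G609G and low in LCS. Which tissue gave the Npy, Gpr82, Iqcf3, Spz1, Fhl4 and Gk2 transcripts was not tested.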

How the data were processed

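Total RNA of perigonadal white adipose tissue was fragmented and biotin-labelled, per the labels' protocols, and measured on 1-colour Affymetrix exon arrays. For each of 229581 probe sets the authors deposited a log2 value on every one of 9 arrays. The log2 scale was read from the values (2.44 to 14.38). Their normalization and software are not given in the sources used here. Per the submitters' processing notes, the build is mm9. The tables of gene names and promoters are of GRCm38.p6, so no position of a probe set is given. No slide or scan date was used here, so batches were not tested. The number of arrays limits the precision.

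The platform annotation gave 208397 probe sets a single symbol, 3965 more than 1 and 17219 none. Of 16299 symbols, RefSeq lists 14132 as current and 2161 as synonyms, and 6 were not found. Median polish, stopped after 10 rounds, gave the gene values. The intensity filter kept 11342 genes that had 3 or more probe sets and whose mean exceeded the 25th percentile (5.09). They entered 1 limma model of all 9 arrays (lmFit, then eBayes with a trend), with p-values adjusted by Benjamini-Hochberg at a threshold of 0.05. Probe sets were tested against the rest of their gene with diffSplice (155155 in 13736 genes). The steps were tested on simulated data. Summed intensities are sums of unlogged gene values.

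The members and the 48 gene lists (1418 symbols, 1068 tested) were chosen with earlier results of these data known. Spint4, Wfdc13, Fabp9, Defb22, Crisp2, Prm2, Rnase9, Crisp1, Lcn5, Lep, Npr3, Itga7, Pnpla3 and Elovl4 were already named in an earlier text on these arrays and are no independent support. Several of them are also in the cell type marker sets, so counts over those sets are no independent support either. The naming rule took the 15 largest rises and falls without overlap between groups (predicted names and olfactory or vomeronasal receptors left out), in each list up to 8 members with the lowest p and up to 3 with the highest level, a fixed set around Lmna and adipose tissue, and 5 probe sets of different genes by diffSplice p. Named outside that rule, after their values were seen, were C1qa, C1qc, Lcn10, Wfdc6b, Defb29, Defb21, Defb19, Agt, Thbs2, Trem2, Wnt4, Orm2 and Maff. Ucp1, which was not tested, was also named after its values were seen. Alternatives covered summary, normalization, centring, filters, variance model, arrays in the fit, a replicate block, the methods' t-test at a fold of 1.5 and leaving out each array. No pair of arrays shared more than 1.89% identical values. The software was R 4.3.3 with limma 3.58.1 and the data.table package, version 1.17.8, and Python 3.11.15 with matplotlib 3.10.9.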

Additional observations from a re-analysis of the deposited data

How the results depend on the processing

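Of 279 named genes 265 were called, all 265 with the same sign in every alternative run, and 238 kept their call in every fit at an adjusted p under 0.05. Of the 14 not called, 10 (Cfd, Cebpa, Fasn, Scd1, Insr, Pdgfra, Gpx5, Lmna, Zmpste24 and Lbr) were called in at least 1 other fit. Lmna took the opposite sign with the mean of probe sets (-0.47). Counts at a fold of 1.5 with the methods' t-test, the same after Benjamini-Hochberg, and the limma call with that fold were 440, 429 and 445 higher and 525, 513 and 528 lower for all genes. In the same order they were 20, 20 and 20 higher and 12, 12 and 12 lower for fat-storing genes, 76, 75 and 78 and 8, 8 and 8 for stromal, 14, 14 and 14 and 5, 5 and 5 for vascular, and 10, 10 and 10 higher for gonadal genes. Array weights called 4387 genes higher, and quantile normalization of the 6 arrays 2433 lower. Fat-storing genes called lower numbered 72 with quantile normalization of 9 arrays and 78 with 6. Stromal genes called lower were 15 with the median of probe sets. With genes above the 50th percentile, 12 vascular and 50 gonadal genes were lower, where fewer genes were tested. The splicing index called 3 Lmna probe sets. Except as stated, the cause was not tested. Leaving out 1 array gave 1938 to 2613 genes higher and 1197 to 1335 lower, fat-storing 91 to 111 and 33 to 42, stromal 186 to 207 and 21 to 25, vascular 62 to 73 and 14 to 19, gonadal 23 to 24 and 81 to 82, and 9 to 12 Lmna probe sets. Same-numbered WT and LCS arrays deviated together with r = -0.113, 0.204 and 0.0854, and for 3 of 6 arrays the closest array of the other group had the same number, so the numbers were not taken as a pairing. A replicate block gave 2837 higher and 1592 lower over 9 arrays and 3370 and 1822 over 6.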
